A study of Mus musculus with 35 samples.

Results

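Juvenile-only HPC regions are stretches of open chromatin that were called in hematopoietic progenitor cells (HPCs) of mouse pups and in neither fetal nor adult HPCs. They were chosen from the HPC regions called at postnatal day 14 (P14): a region was taken when it overlapped, by at least 1 bp, a region of HPCs at P7 or P21 and no region of fetal or adult HPCs. Of 91043 P14 HPC regions on chromosomes 1 to 19 and X, 3713 (4.08%) met this rule, of 891747 regions over all 12 lists of the series. The presence and absence of these regions in the 5 HPC lists was thus set by the choice and is given only as a description. The name holds among the HPC lists alone, since 2096 of the 3713 regions (56.5%) were called in fetal or adult hematopoietic stem cells (HSCs), where the background over all P14 HPC regions was 85.2%.

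ATAC-seq measures open chromatin by the cuts that the transposase Tn5 makes in accessible DNA, and 35 such libraries from B6 mice, of HSCs or HPCs, formed 12 groups. The first set held HPCs at E16.5 (embryonic, 3 libraries), P7 (3), P14 (2), P21 (2) and 8 weeks (3), and HSCs at E16.5 (3), P14 (3) and 8 weeks (5). Titles of its 8-week libraries carry the tag WT (wild type), and titles of its other libraries name no genotype. The second set held P7 HPCs and HSCs from wild-type mice (3 and 3 libraries) and from mice whose genotype label is Infnar_KO, a knockout of the type I interferon receptor gene Ifnar according to the series description (3 and 2). The titles of the HPC libraries of the second set carry the tag 48+LSK; the labels give no other detail of how cells were sorted, and do not say which part of the gene was deleted. Each group had 1 pooled peak list, so the data give no spread between replicates, no test was possible, and the intervals below are exact Clopper-Pearson 95% intervals that cover counting error only. Numbers of reads per library were not used here, and differences in depth between lists and differences between ages cannot be told apart.

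HSCs maintain themselves and give rise to HPCs, which divide and commit to the blood lineages. Blood formation moves from the fetal liver to the bone marrow around birth, and in the first weeks of life fetal gene programmes are replaced by adult ones. Open chromatin away from gene starts often marks enhancers, which tend to be more specific to a cell state than the open chromatin at gene starts.

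The labels of the libraries and the names of the lists did not fully match. The descriptions of 6 of the 13 HPC libraries of the first set named the list of another group, and 0 of the 4 libraries of P14 and P21 HPCs named their own. The same held for 6 of the 11 HSC libraries of the first set, since 0 of the 3 of P14 HSCs and 2 of the 5 of adult HSCs named their own list. All lists were therefore assigned by the name that each list carries, and the comparisons with P14 and adult HSCs rest on these names. All 11 libraries of the second set named their own list. A knockout HPC library of that set was grouped by its genotype label, because its title ends in a code like those of wild-type libraries. The knockout HPC list was taken by its name, so this changes no value. The genotype behind that list therefore rests on the labels. In the second set, 4690 strong regions of wild-type P7 cells were called in HPCs and not in HSCs, and 97.2% of them were called in the P14 HPC list and 92.5% in the P21 HPC list. The 5 HPC lists held 82.5% to 97.2% of these regions and the 3 HSC lists 55.1% to 61.4%, so the lists named for HPCs resembled the HPC regions of the second set. This check compares cell types and cannot tell whether a list carries the right age. The juvenile-only rule therefore also rests on the names of the lists. The reverse check rested on 221 strong HSC regions, of which the HSC lists held 97.7% to 98.6%, the P14 HPC list 76.5% and the P21 HPC list 43.4%. The fetal, P7 and adult HPC lists held 78.7%, 62.9% and 62.0%.

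Few of the juvenile-only regions lay at gene starts, and the sequences at some of these are shown because there the opened DNA can be assigned to a gene. In all, 145 regions covered an annotated gene start, 4.03% of the 3598 that lay on chromosomes with promoter sequences, beside 13.6% of all P14 HPC regions. Among regions of like strength the shares were closer. In the 3 weakest of 5 strength classes, defined below, they were 3.39%, 4.60% and 7.08%, against 2.83%, 4.84% and 7.80% of other P14 HPC regions. The 145 regions held the starts of 159 RefSeq promoter windows of 146 genes, of 32619 windows in the table (0.487%), and 46.5% of all windows had their start in a P14 HPC region. The 3 promoters printed belong to the strongest such regions of named genes whose start is the outermost one annotated. Each is the 250 bases before the start, 5′ to 3′ on the gene's strand, from RefSeq on GRCm38.p6, with matches to the motifs named below in capitals.
Copz2, plus strand, chr11:96849626-96849875: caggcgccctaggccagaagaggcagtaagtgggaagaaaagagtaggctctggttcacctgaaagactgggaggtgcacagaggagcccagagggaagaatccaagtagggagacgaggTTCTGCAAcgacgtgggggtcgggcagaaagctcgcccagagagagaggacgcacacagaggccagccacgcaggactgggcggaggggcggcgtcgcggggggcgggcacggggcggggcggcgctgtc
Vwa2, plus strand, chr19:56874166-56874415: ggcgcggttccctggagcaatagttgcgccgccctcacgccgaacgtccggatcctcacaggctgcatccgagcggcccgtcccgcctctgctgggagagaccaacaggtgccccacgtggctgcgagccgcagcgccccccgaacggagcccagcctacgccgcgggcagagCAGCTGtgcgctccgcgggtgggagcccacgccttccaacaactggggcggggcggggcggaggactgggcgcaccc
Rab34, plus strand, chr11:78188177-78188426: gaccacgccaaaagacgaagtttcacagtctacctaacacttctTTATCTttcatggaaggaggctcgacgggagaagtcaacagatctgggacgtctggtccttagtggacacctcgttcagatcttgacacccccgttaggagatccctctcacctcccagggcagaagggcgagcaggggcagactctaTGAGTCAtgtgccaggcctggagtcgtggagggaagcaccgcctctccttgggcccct
The capitals mark a C/EBP match (TTGCNNAA) in Copz2, which encodes a subunit of the coat of Golgi transport vesicles. They mark an E-box (CAGCTG) in Vwa2, a gene of an extracellular matrix protein, and a GATA match (AGATAA) and an AP-1 match (TGANTCA) in Rab34, a gene of a small GTPase of membrane traffic.

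The Copz2 region, chr11:96849544-96850486, also covered the hairpin of the microRNA miR-152 (plus strand, chr11:96850393-96850465), the only one of 1005 annotated miRNA hairpins that lay in a juvenile-only region. Both mature strands are shown with the seed, bases 2 to 8, in capitals.
mmu-miR-152-5p: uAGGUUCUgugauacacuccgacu
mmu-miR-152-3p: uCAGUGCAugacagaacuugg
The Copz2 region had a −log10 p, the peak caller's strength of a call, of 64.8 in P14 HPCs and 9.6 in P7 HPCs, and no region was called in P21 HPCs. Its strength was 75 in P14 HSCs, 43.7 in adult HSCs and 11.7 in fetal HSCs. In P7 cells of the second set it was 35.1 in wild-type HPCs, 38.6 in knockout HPCs and 20.6 in knockout HSCs, and no region was called in wild-type HSCs. The region was thus called in HSCs at all 3 ages of the first set, while in HPCs it was called at P7 and P14.

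The Vwa2 and Rab34 regions were called in all 3 juvenile HPC lists and in every one of the 7 lists that the rule did not use. At Vwa2 the −log10 p was 17.1, 57.2 and 39.9 in P7, P14 and P21 HPCs, 29.5 to 56.7 in the 3 HSC lists of the first set, and 18 to 48.3 in the second set. At Rab34 the values were 7.1, 51.6 and 22.8 in the juvenile HPCs, 52.2 to 89.4 in the HSC lists and 38.8 to 50.1 in the second set. Of the 145 regions at gene starts, 109 (75.2%) were called in fetal or adult HSCs and 55 (37.9%) in wild-type P7 HPCs of the second set, beside 97.9% and 89.0% of the 12003 P14 HPC regions that covered a gene start. Procr, which encodes a surface receptor used as a marker of HSCs, was among them: its start lay in chr2:155750948-155751757, with −log10 p values of 13.9, 48.9 and 21.7 in P7, P14 and P21 HPCs. In HSCs that region had 26.8 at the fetal stage, 52.5 at P14 and 73.8 in adults.

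The promoters in juvenile-only regions had a base composition between that of promoters open at all ages and that of all promoters. The median GC content of the 250 bases was 59.2%, beside 61.2% for the 13593 windows whose start lay in regions called in all 5 HPC lists and 52.4% for all windows, and the median number of CpG dinucleotides was 10, 17 and 6. AP-1 letters were found on either strand in 16 of 159 juvenile-only promoters (10.1%, 5.86% to 15.8%), 3.78% of the promoters open at all ages and 6.78% of all promoters. GATA letters were in 11.3%, 4.93% and 10.02% of the 3 sets, and E-box letters in 19.5%, 11.9% and 13.1%. The ETS letters CCGGAAG were in 6.92% (3.50% to 12%), 13.6% and 6.96%. For PU.1 (GAGGAAG), C/EBP and RUNX (TGTGGTT) the shares were 11.9%, 8.18% and 3.14% beside 10.7%, 9.62% and 4.41% of all promoters. NRF1 letters (GCGCATGC) were in 1.26% and a CRE (TGACGTCA) in 0.629%, beside 2.26% and 1.56% of all promoters. The intervals of the juvenile-only shares of AP-1 and GATA letters held the share of all promoters. The interval of E-box letters (13.6% to 26.5%) lay above the E-box share of all promoters, with no adjustment for the number of motifs searched. The 159 windows belong to 146 genes and some share bases, so they are not independent as the intervals assume. The motifs differ in GC content and some can overlap each other, and no match shows that a factor was bound.

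Juvenile-only regions were weak and narrow. Their −log10 p in the P14 HPC list had a median of 21.5 (quartiles 14.9 and 29.7, range 1.06 to 216), beside 60.2 for all P14 HPC regions and 125 for the 51525 called in all 5 HPC lists. The median fold over local background was 5.43 against 9.54 for all, and the median width 377 bp (quartiles 280 and 511, range 150 to 1863) against 518 bp. A single peak made up 78.0% of the regions, beside 64.4% of all, and together they covered 1.59 of the 53.6 Mb in the P14 HPC list. With the P14 HPC list divided by −log10 p into 5 classes of equal size, 2176 regions (58.6%) fell in the weakest class, 3467 (93.4%) in the 2 weakest and 77 (2.07%) in the upper 50% of the list. Their medians in the other juvenile lists were also low, 12.2 in P7 HPCs (the list's median was 29.2) and 17.8 in P21 HPCs (48.9).

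The 3 patterns of presence that make up the juvenile-only regions were among the 4 smallest. P7 alone supported 1516 of the 3713 regions, P21 alone 1409, and both 788, the smallest of the 16 possible patterns. Over all P14 HPC regions, 77.1% overlapped the fetal, 75.5% the P7, 73.8% the P21 and 81.7% the adult HPC list. The mirror pattern, called in fetal and adult HPCs and in neither P7 nor P21, held 2390 P14 regions with a median −log10 p of 25.3, and P14 alone held 5570 with a median of 14.2. The regions supported by both ages were stronger, at 27.5, than those supported by P7 alone (19.9) or P21 alone (19.8).

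**Figure D1:**
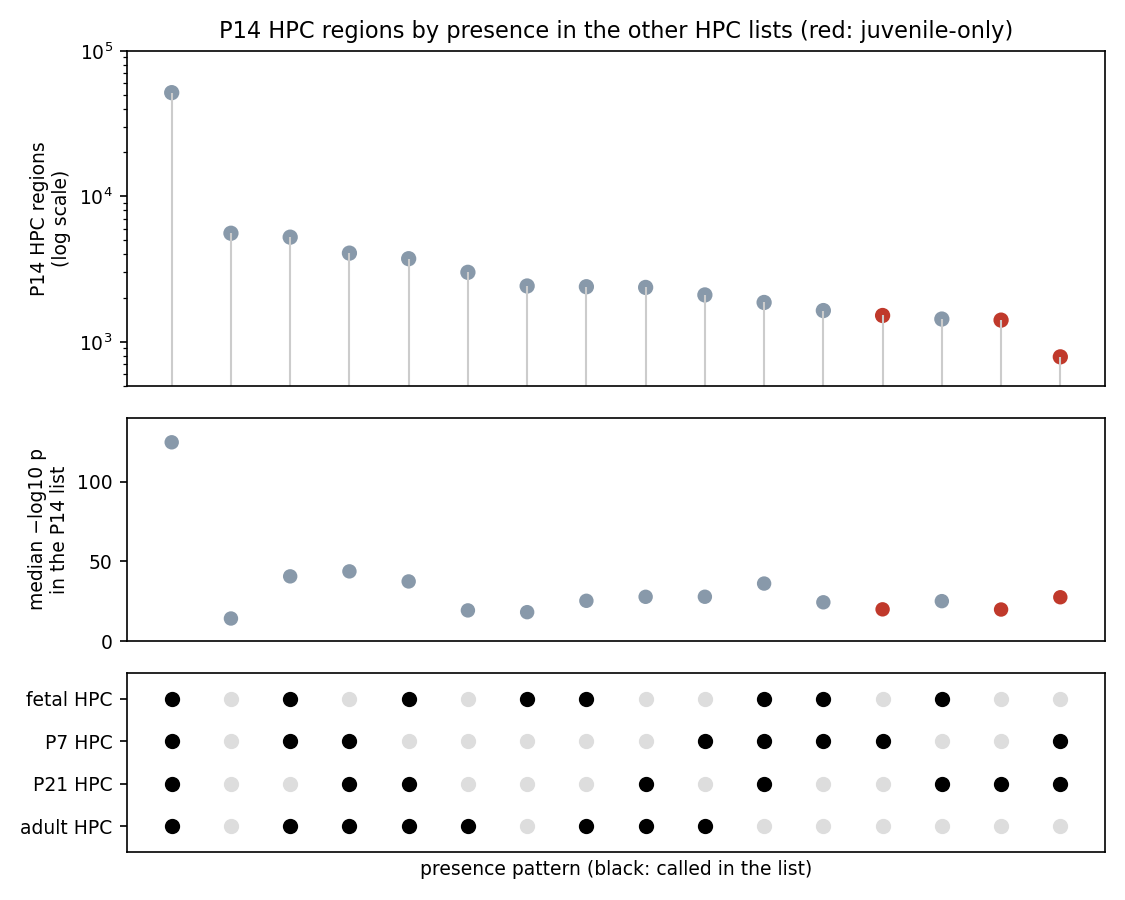
P14 HPC regions in each of the 16 patterns of presence in the fetal, P7, P21 and adult HPC lists: number of regions (upper panel, log axis), median −log10 p in the P14 list (middle) and the pattern itself (lower panel, black where called). The 3 juvenile-only patterns, in red, hold 1516, 1409 and 788 regions with medians of 19.9, 19.8 and 27.5.

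The rule's limits were met with little overlap in few regions. The shortest gap to a fetal HPC region was 10 bp and to an adult HPC region 22 bp, with median gaps of 4598 and 4245 bp, and 522 (14.1%) and 519 (14.0%) of the juvenile-only regions lay within 500 bp of one. On the inside, the smallest overlap was 3 bp with a P7 region and 4 bp with a P21 region, and 6 and 2 regions had less than 10 bp. Just outside, 5 P14 regions that overlapped P7 or P21 were left out for less than 10 bp of fetal or adult overlap, and their median −log10 p was 10.1.

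In lists that the rule did not use, juvenile-only regions were called less often than P14 HPC regions in general. Fetal HSCs held 43.8% of them (42.2% to 45.4%) beside 76.6% of all P14 HPC regions, P14 HSCs 44.0% (42.3% to 45.6%) beside 68.8%, and adult HSCs 39.1% (37.6% to 40.7%) beside 77.2%. Wild-type P7 HPCs of the second set held 39.4% (37.8% to 41.0%) beside 65.8%, and knockout P7 HPCs 30.5% beside 59.7%. In P7 HSCs the shares were 16.6% in wild type beside 47.4% and 13.9% in the knockout beside 44.1%. None of the 7 lists held 825 of the regions (22.2%, beside 7.45% of all), and 138 (3.72%, beside 35%) were in all 7.

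The shares over the lists differed from those of the mirror regions, which were of similar strength. Mirror regions were found in 69.7% of cases in fetal HSCs, 41.6% in P14 HSCs, 65.5% in adult HSCs and 27.4% in wild-type P7 HPCs of the second set. Juvenile-only regions were thus less frequent than mirror regions in fetal and adult HSCs, more frequent in P7 HPCs of the second set, and close to them in P14 HSCs. Mirror regions were chosen for calls in fetal and adult HPCs and for none in P7 HPCs of the first set. That P7 list held 62.1% of the juvenile-only regions. The differences are therefore no independent support, and the part of the choice in them was not tested. These directions against the mirror regions held when the 3 HSC lists and the wild-type P7 HPC list were cut to the same length of 66044 regions, a setting chosen after seeing the data, which gave 21.2%, 37.2%, 16.8% and 39.4% for juvenile-only and 50.2%, 36.4%, 43.0% and 27.4% for mirror regions. The order of the lists among juvenile-only regions did not hold: P14 HSCs had the highest share as deposited, and wild-type P7 HPCs at equal length.

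**Figure D2:**
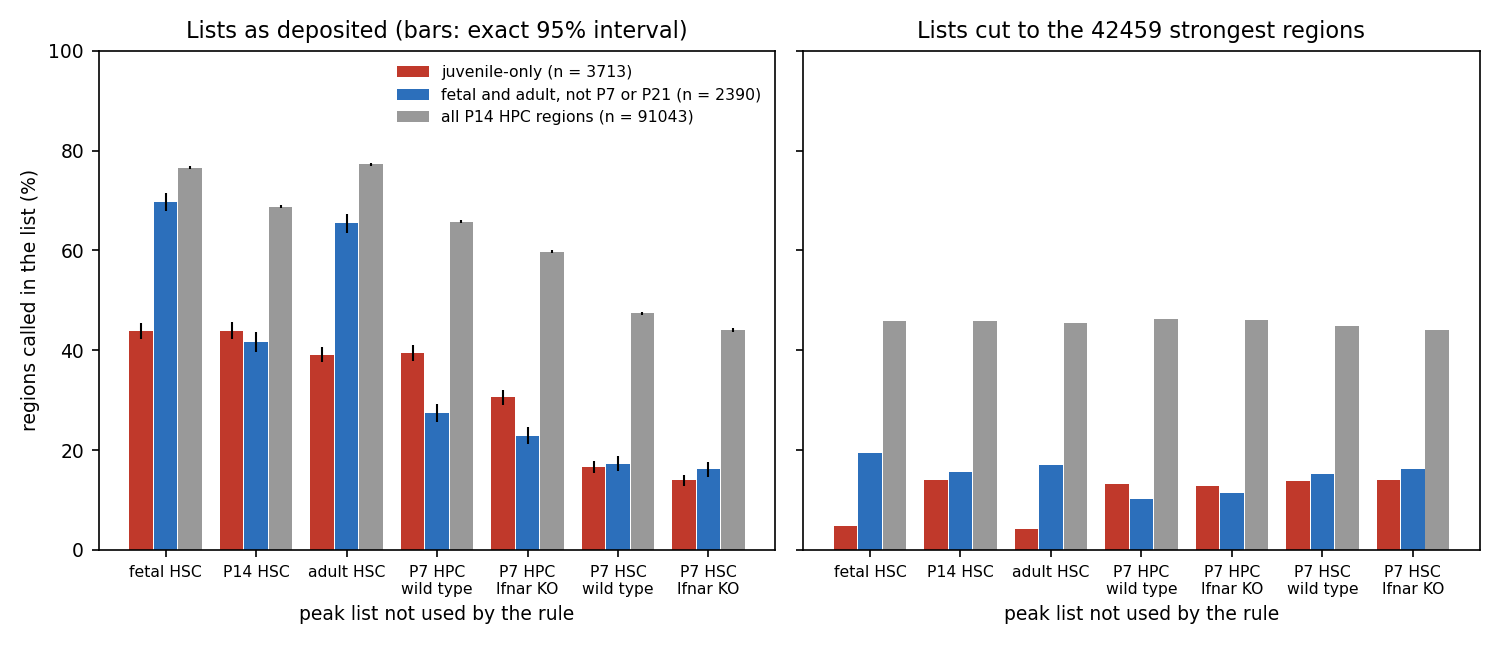
Share of juvenile-only regions (red), mirror regions (blue) and all P14 HPC regions (grey) called in each of the 7 lists that the rule did not use, with the lists as deposited (left, bars show exact 95% intervals) and cut to the 42459 strongest regions of each (right). Red bars stand at 43.8% and 39.1% in fetal and adult HSCs on the left and at 4.74% and 4.15% on the right, and at 44.0% and 14.0% in P14 HSCs.

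Among regions of like strength, the juvenile-only share was below that of other regions in fetal and adult HSCs, and so was the share of regions called in P14 HPCs alone. In strength class 2 (−log10 p of 23.7 to 43.7, 1291 juvenile-only and 16950 other regions), fetal HSCs held 50.6% of the juvenile-only and 67.3% of the other regions, and adult HSCs 45.6% and 68.3%. P14 HSCs held 54.7% and 53.8%. In P7 HPCs of the second set the juvenile-only share was the higher one, 54.4% against 47.2% in wild type and 43.0% against 37.3% in the knockout. P7 HSCs showed 23.8% against 23.4% in wild type and 18.8% against 19.2% in the knockout. The weakest class (2176 and 16033 regions) gave the same order, with 36.6% against 43.8% in fetal HSCs, 32.6% against 42.9% in adult HSCs and 26.3% against 21.5% in wild-type P7 HPCs. Regions called in P14 HPCs alone, which are likewise missing from fetal and adult HPCs, had lower or similar shares: in class 2 (728 regions) 45.6% in fetal HSCs, 40.8% in adult HSCs, 53.8% in P14 HSCs and 44.5% in wild-type P7 HPCs, and in class 1 (4793 regions) 27.5%, 24.5%, 25.5% and 16.2%. The lower shares in fetal and adult HSCs were thus not particular to juvenile-only regions. The fetal and adult HSC lists come from the same ages as the 2 lists that the rule used to leave regions out, and the part of this choice in their lower shares was not tested. The P7 HPC lists of the second set likewise share age and cell type with a list that the rule used to take regions in. The part of that choice in their higher shares was not tested either.

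**Figure D3:**
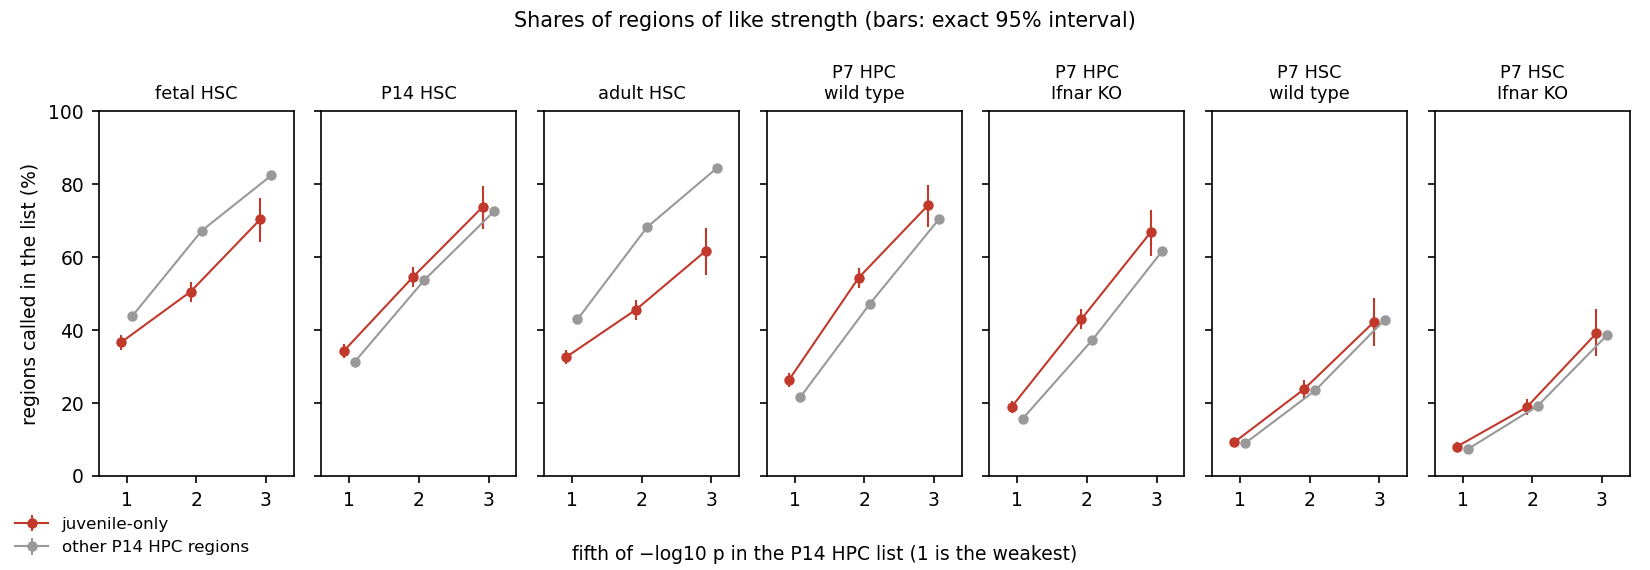
Share of juvenile-only (red) and other P14 HPC regions (grey) called in each of the 7 lists, by class of −log10 p in the P14 HPC list, from the weakest class 1 to class 3, with exact 95% intervals. Red lies below grey in fetal and adult HSCs (50.6% against 67.3% and 45.6% against 68.3% in class 2) and above it in P7 HPCs.

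Some juvenile-only regions were called in P14 HSCs and in neither fetal nor adult HSCs; the first set has no HSC list at P7 or P21. They numbered 340 (9.16%), a pattern shown by 2.5% of all P14 HPC regions. In strength classes 1 and 2 this pattern was seen in 9.28% and 9.60% of juvenile-only regions and in 5.57% and 3.57% of the others. The others include regions called in fetal or adult HPCs, which the rule kept out of the juvenile-only set. The part of this choice in the difference was not tested, so the difference is no independent support. Wild-type P7 HSCs of the second set held 55 of the 340 (16.2%), beside 17.2% of all P14 HPC regions with this pattern. A further 734 regions (19.8%, beside 58.7% of all) were in all 3 HSC lists, and 1277 (34.4%, beside 12.3%) in none. Of the 1617 regions that were in no fetal or adult list of either cell type, 599 (37.0%) were called in wild-type P7 HPCs of the second set, 68 (4.21%) in wild-type P7 HSCs, and 165 (10.2%) in P7, P21 and second-set wild-type P7 HPCs together. The other 3212 P14 HPC regions in no fetal or adult list, which the rule left out for lack of a P7 or P21 call, had 19.1% in wild-type P7 HPCs and 2.93% in wild-type P7 HSCs. In strength class 1 the shares in wild-type P7 HPCs were 26.2% for juvenile-only and 16.4% for these other regions, and in class 2 58.4% and 44.5%.

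Support by both P7 and P21 went with higher shares in the second set. Wild-type P7 HPCs held 54.9% of the regions supported by both ages, 33.3% of those supported by P7 alone and 37.2% of those supported by P21 alone. In P14 HSCs the corresponding shares were 53.7%, 39.4% and 43.4%. The regions supported by both ages were also stronger in P14 HPCs, with a median −log10 p of 27.5 against 19.9 and 19.8. All juvenile-only regions of strength class 2 had 54.4% in wild-type P7 HPCs and 54.7% in P14 HSCs. The part of strength in the higher shares was not tested.

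Knockout P7 HPCs lacked juvenile-only regions about as often as they lacked other regions of the same strength. Of the 1721 called in P7 HPCs of either genotype, 875 were in both lists, 587 (34.1%, 31.9% to 36.4%) in wild type alone and 259 (15.0%) in the knockout alone. Over all P14 HPC regions, 10.3% were in wild type alone and 4.25% in the knockout alone, and wild type alone made up 14.7% of those in either list. Within strength classes 1, 2 and 3 the share in wild type alone was 41.2%, 31.7% and 19.4% for juvenile-only regions, and 40.3%, 30.7% and 19.4% for other regions. With both lists cut to 58567 regions, wild type held 1138 and the knockout 1134 of the juvenile-only regions, 355 and 351 of them alone, which were 23.8% and 23.6% of those in either list, beside 10.1% and 8.79% over all P14 HPC regions.

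The strongest region lay 12130 bp from the nearest end of Dok4, a gene of a docking protein of receptor tyrosine kinase signalling, at chr8:94888442-94889062. Its −log10 p was 216 in P14 HPCs and 46.6 in P7 HPCs, and it was called in neither fetal, P21 nor adult HPCs. In HSCs it had 197 at the fetal stage, 253 at P14 and 201 in adults, and in P7 cells of the second set 173 to 273. It was thus strong in every list but the other HPC lists of the first set. The P7 HPC lists of the 2 sets differed there, with 46.6 in the first and 270 and 273 in the second. Coro2b, a gene of an actin-binding coronin, showed the same presence at chr9:62420989-62421621, with 96.6 in P14 and 29.2 in P7 HPCs and 151 to 246 in the other 7 lists. Only 5 juvenile-only regions exceeded 100, among them those nearest to Map9 (106), Itgb1 (103) and Prr29 (101). Itgb1 encodes the beta-1 integrin that anchors blood stem and progenitor cells to their niche. Its region, chr8:128662966-128663552, had 50 in P7 and 26.9 in P21 HPCs. The values were 149 to 203 in HSCs of the first set, and 131 and 65.5 in wild-type and knockout P7 HSCs of the second.

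A region near Traf1 was called mostly in HPCs. Traf1 encodes an adaptor of tumour necrosis factor receptors, and the region, chr2:34958587-34959073, lay 2739 bp from the gene's nearer end. It had 23.2, 95 and 40.9 in P7, P14 and P21 HPCs, and 104 in wild-type and 64.7 in knockout P7 HPCs. In HSCs it was called at the fetal stage alone, with 11.6. Arid5b, a gene of a DNA-binding regulator active in lymphoid cells, had a region at chr10:68252695-68253056 with 38.5, 89.2 and 28.4 in the juvenile HPCs and 62.5 in fetal HSCs, and no call in P14 or adult HSCs.

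The 10 strongest regions that were missing from all fetal and adult lists and called in wild-type P7 HPCs of the second set are named here for their absence from both cell types at the fetal and adult stages. Anapc16, which encodes a subunit of the anaphase-promoting complex, was nearest to the strongest, chr10:60028011-60028783, with 15.1, 73.1 and 15.0 in P7, P14 and P21 HPCs, and 48.9 and 59.4 in wild-type and knockout P7 HPCs. Smug1, a gene of a DNA glycosylase of base excision repair, had a region over one of its ends at chr15:103152912-103153319, with 16.1, 64.8 and 34.6 in the juvenile HPCs and 134 and 84.7 in the second set. Kpna2, an importin gene, had no call at P7 in the first set and 61.3 and 31.2 at P14 and P21, yet 115.5 in wild-type P7 HPCs of the second set and 61.0 in the knockout. The region near Hax1, whose product protects myeloid cells from apoptosis, likewise lacked a P7 call in the first set and had 89.9 and 70.2 in the second. No HSC list of either set held the regions of Anapc16, Smug1, Kpna2, Hax1, Tdpoz1, Cfap77 or Sstr3, while Marchf3, Padi1 and Srgap2 had calls of 13.1, 55.7 and 47.7 in P14 HSCs. All 10 were called in knockout P7 HPCs, with 38.1 to 87.1. The rule for naming them required the wild-type call, so that call is no support of its own.

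Other regions were named for being strong at all 3 juvenile ages. Tomm20, a gene of the mitochondrial import receptor, lay 9914 bp from a region with 77.7, 41.0 and 97.9 at P7, P14 and P21, which had 408 in P14 HSCs and 18.8 and 25.8 in fetal and adult HSCs. In the second set that region had 336 and 241 in wild-type HPCs and HSCs, 44.6 in knockout HPCs and no call in knockout HSCs. The Ttll9 region, near a gene of the tubulin ligase-like family, had 57.3, 62.1 and 102.5 in the juvenile HPCs, 314 and 182 in wild-type and knockout P7 HPCs, and 17.3 to 28.1 in HSCs of the first set. A region 21611 bp from Vmn2r89, a pheromone receptor gene, had 34, 53.4 and 35.7 and was in none of the other 7 lists.

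**Figure D4:**
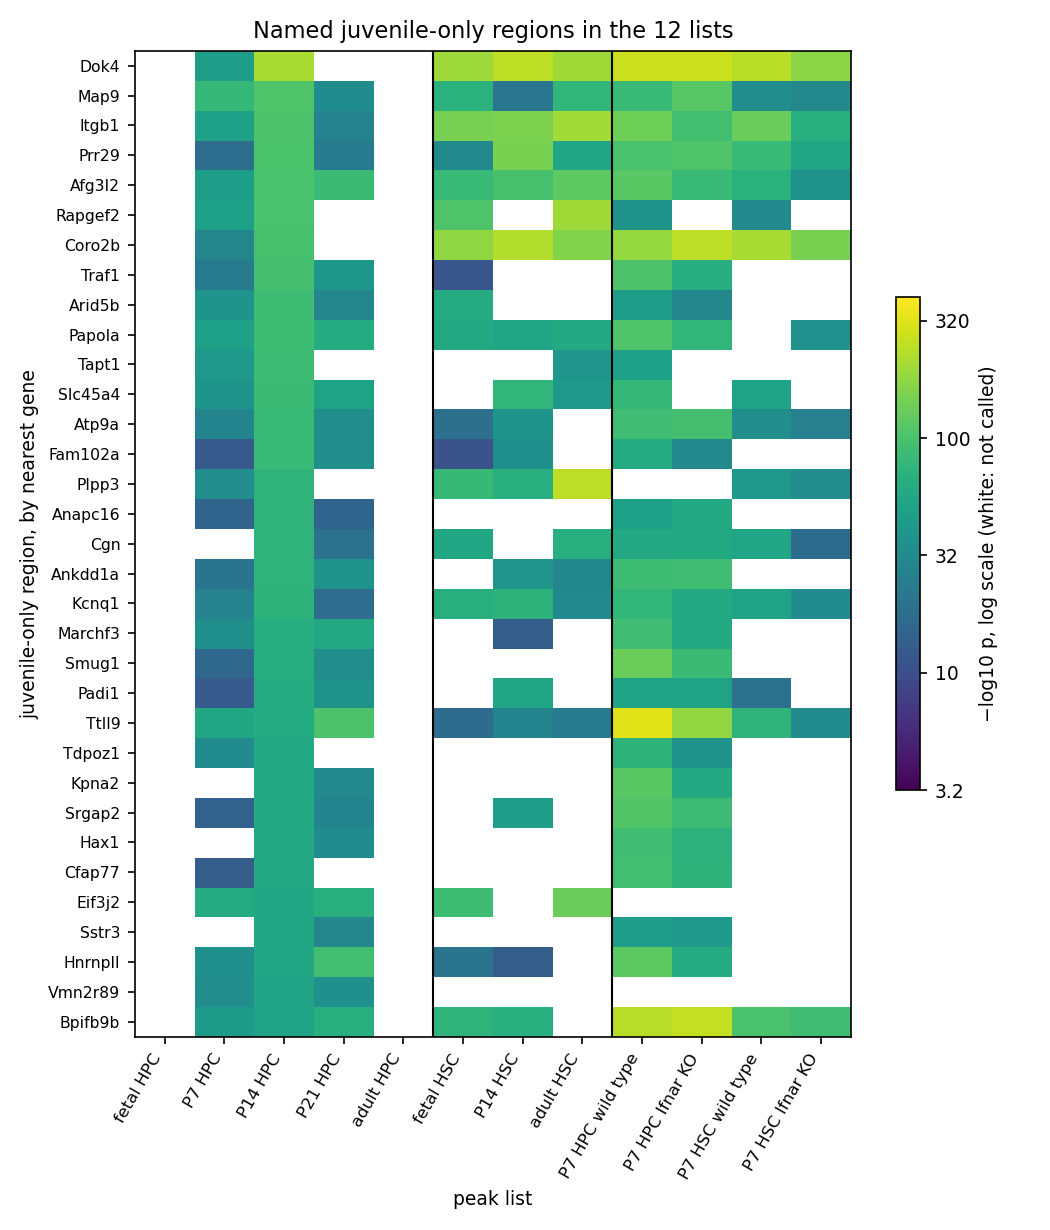
Colours give the −log10 p, on a log scale, of 33 named juvenile-only regions (rows, by nearest gene) in the 12 peak lists (columns), and white marks no call. The white columns of fetal and adult HPCs follow from the rule; the Dok4 row is strong in all 7 lists to the right, and the Vmn2r89 row is white in all of them.

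Most juvenile-only regions lay away from gene ends, as weak regions did in general. Within 1 kb of either end of a protein-coding gene lay 408 (11%, 10% to 12%), beside 18.9% of all P14 HPC regions and 26.1% of those in all 5 HPC lists. In strength classes 1 and 2 the shares were 10.5% and 11.8% for juvenile-only regions and 9.11% and 10.4% for the others. Regions over 50 kb from any gene end were less frequent than among others of like strength, 24.6% against 31.6% in class 1 and 21.3% against 28.9% in class 2. Gene bodies held 2091 (56.3%) beside 55.9% of all P14 HPC regions.

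Position differed by the age that supported a region. Of the regions supported by P21 alone, 13.9% (12.1% to 15.8%) lay within 1 kb of a gene end and 17.5% over 50 kb away, and of those supported by P7 alone, 7.78% (6.48% to 9.25%) and 29.7%. The same contrast was seen in P14 regions that were also in fetal HPCs and not in adult HPCs, with 16.9% at gene ends and 17.9% beyond 50 kb for P21 and 9.76% and 38.2% for P7. Mirror regions had 7.53% and 39.3%. The position of regions thus moved with the list that supported them, inside and outside the juvenile-only set.

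**Figure D5:**
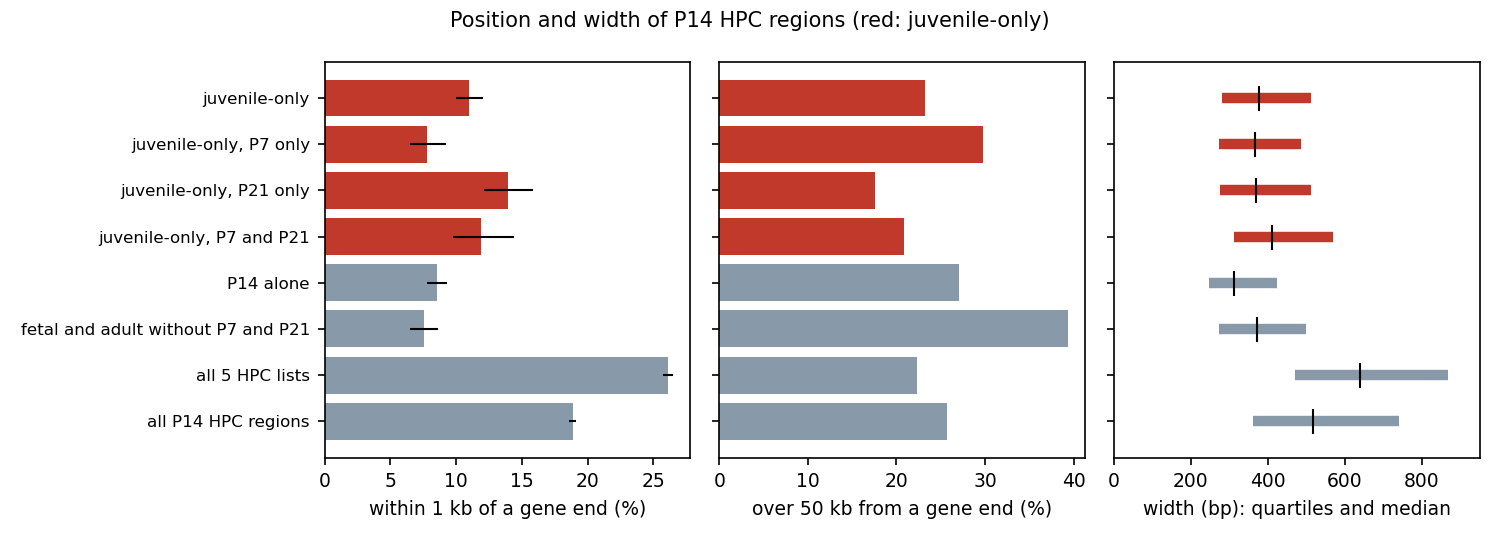
Share of regions within 1 kb of a gene end (left, bars show exact 95% intervals), share over 50 kb away (middle) and width (right, quartiles with the median as a black line) for juvenile-only regions and their 3 subsets in red and 4 other sets of P14 HPC regions in grey. P21-only regions reach 13.9% at gene ends and P7-only regions 7.78%, beside 18.9% for all.

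Juvenile-only regions were spread over many genes. Of 21631 protein-coding genes, 2741 had at least 1 within 10 kb of the gene body, 447 at least 2 and 28 at least 4. Msi2, which encodes an RNA-binding protein that sustains HSC self-renewal, had the most, 7 of the 28 P14 HPC regions in its window. The strongest of these, chr11:88485448-88485878, had 41.3 in P14 and 11.9 in P7 HPCs, 71.5 in P14 HSCs and 39.6 in adult HSCs, and was missing from fetal HSCs. Med13l, a gene of the Mediator kinase module, had 6 of 23, and Tgfbr3, which encodes the TGF-beta co-receptor betaglycan, 5 of 14. Cntn2, a gene of a neural adhesion protein, had 4 of only 6. Foxp1, a gene of a transcription factor of B cell development, had 5 of 58, and all 5 were called in fetal or adult HSCs.

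Near genes of HSC regulation, juvenile-only regions made up 23 of 284 P14 HPC regions (8.10%, 5.20% to 11.9%), beside 4.09% of the regions within 10 kb of any protein-coding gene. They lay at 9 of 25 genes: after the 7 of Msi2, Meis1 and Runx1, which encode transcription factors of HSC maintenance and emergence, had 4 each, and Slamf1 and Vwf 2 each. The strongest Runx1 region, chr16:92653853-92654292, had 61.4 in P14 and 31.2 in P21 HPCs and 20.5, 230 and 105 in fetal, P14 and adult HSCs, while in P7 HPCs it had no call in either set. At Vwf, the gene of von Willebrand factor, one region had 17.1, 40.6 and 25.2 in the juvenile HPCs and 65.1 and 62.9 in wild-type and knockout P7 HPCs, and no call in HSCs of the first set. Of the 23 regions, 13 (56.5%) were in fetal or adult HSCs, beside 80.6% of the 284. Regions near 1 gene are not independent, and 7 of the 23 belong to Msi2.

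The list of fetal genes had 10 of 96 regions (10.4%, 5.11% to 18.3%) at 8 of 14 genes. Hmga2, a chromatin protein gene expressed in fetal HSCs, had 3; the strongest, chr10:120422776-120423209, had 30.5 at P14, 23.3 at P21 and 32 in wild-type P7 HPCs, and none in HSCs. The other 2 Hmga2 regions, with 26.9 and 24.1 at P14, were both in fetal HSCs, at 31.1 and 39.6. Bcl11a, the repressor of fetal globin genes, had 1 region with 15.5 at P14 and 7.1 at P7. In the second set that region had 30.1 in knockout P7 HPCs and no call in wild-type P7 HPCs.

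Lineage genes held smaller numbers, and within 10 kb their intervals included the background of 4.09%. Myeloid genes had 8 of 89 regions (8.99%), B cell markers 6 of 64 (9.38%), erythroid and megakaryocytic genes 6 of 84 (7.14%) and lymphoid priming genes 9 of 155 (5.81%). Within 50 kb the background was 4.17%, and the shares were 7.93% (4.77% to 12.2%) for myeloid genes, 8.80% (4.48% to 15.2%) for B cell markers and 7.24% (4.19% to 11.5%) for erythroid and megakaryocytic genes, all with intervals above it. HSC regulation genes then had 6.52% (4.34% to 9.35%) and fetal genes 8.61% (4.66% to 14.3%). Lymphoid priming genes had 4.69% (2.45% to 8.04%) within 50 kb, an interval that included the background. For the other 5 lists named here the intervals in the wider window thus lay above it. Genes of any of the gene lists, these 5 included, had 5.57% (4.77% to 6.46%) there, and the intervals of all 5 included this share. Within 10 kb that share was 5.67% (4.56% to 6.95%), and the intervals of HSC regulation and fetal genes included it. An excess of these 5 lists over the other gene lists was not tested. No adjustment was made for the number of lists and windows. At Gfi1, a repressor gene of neutrophil and HSC programmes, the region chr5:107708038-107708467 had 63.6 at P14 and 45.9 at P21, 53.7 to 83.8 in HSCs and 42.6 to 54.9 in the second set. Vpreb3, one of the B cell markers, had 3 regions with 33.6, 23.3 and 15.8 at P14. Dntt, which adds bases at antigen receptor joints, had 1 region with 8.2, 15.0 and 15.6 at P7, P14 and P21, and Ebf1, a B cell factor gene, 1 with 14.9 and 10.7 at P14 and P21. Zfpm1, the gene of the GATA1 partner FOG1, had 4 of the 6 erythroid and megakaryocytic regions; the strongest had 22.2 at P14 and 85.5 in wild-type P7 HPCs.

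Genes of interferon and innate signalling were near the background within 10 kb. Type I interferon-stimulated genes had 4 of 91 regions (4.40%, 1.21% to 10.9%), 2 of them within 10 kb of Dhx58, a gene of a RIG-I-like RNA sensor. Both of these regions were called in knockout P7 HPCs, with 21.7 and 74.4, and not in wild-type P7 HPCs. The region with 21.7 covered the start of another gene, Zfp385c, and the region with 74.4 lay in the body of Dhx58. Of the rest, 1 was called in wild-type P7 HPCs alone, with 46.2, and 1 in neither. Innate and cytokine receptor genes had 7 of 119 (5.88%). At Ifngr1, the interferon gamma receptor gene, the stronger of 2 regions, chr10:19582228-19582568, had 14.0, 40 and 20.1 at P7, P14 and P21, 46.6 in wild-type P7 HPCs and no call in knockout P7 HPCs. The other had 21.8 and 18.1 at P7 and P14, and 70.2 and 29.6 in wild-type and knockout P7 HPCs. MHC genes had 1 of 70 (1.43%), immediate early and AP-1 genes 1 of 117 (0.855%) and cell cycle genes 2 of 108 (1.85%). Of markers of cells other than HPCs, stromal markers had 5 of 70 (7.14%), endothelial markers 4 of 63 (6.35%), macrophage markers 2 of 52 (3.85%), T and NK cell markers 1 of 32 (3.13%), and mast cell and basophil markers 1 of 29 (3.45%). Other tissues' regulators had 1 of 54 (1.85%) and hepatocyte markers 0 of 25, which allows a share of up to 13.7% by the exact interval. All of these intervals within 10 kb included 4.09%. Within 50 kb, interferon-stimulated genes had 6.20% (3.51% to 10%) and innate and cytokine receptor genes 6.99% (4.05% to 11.1%). Other tissues' regulators had 6.45% (2.40% to 13.5%) in that window. These wider-window intervals also included their background of 4.17%. The part of other cell types in the juvenile-only regions was not tested.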

How the data were processed

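Per the submitters' processing notes, the authors used Bowtie2 and MACS2 on mm10 (GRCm38); no version or setting was given there. For each peak, the deposited lists give a score (413 to 1000), a fold (ratio) over local background and a −log10 p; all are the authors' own and describe or rank regions within a list (the −log10 q was not used). The lowest −log10 p was about 1 in the first set and 2 in the second, so the lists of the 2 sets differ in kind. Touching or overlapping peaks were merged into regions, which took the highest −log10 p of their peaks. A region's value in another list is that of the strongest region there that overlaps it by 1 bp. Regions of all 12 lists were compared with Python 3.11.15, pandas 2.3.3, numpy 2.4.6 and scipy 1.17.1; the region search was tested on simulated lists. Depth per library was not used here, and its effect on the lists is unknown.

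Genes came from RefSeq tables of GRCm38.p6 (21631 protein-coding genes, without exons) by symbol, and all 276 genes of 18 gene lists matched. Exons, introns and sequences of regions away from gene starts were not analysed here. The regions, gene lists, motifs and comparisons were chosen with earlier results of these data known. Named regions are the 20 strongest in P14 HPCs, the 10 with the highest lowest value over P7, P14 and P21, the 10 strongest that were in no fetal or adult list but in wild-type P7 HPCs of the second set, the 5 strongest within 1 kb of a gene end, those of the 10 genes with most regions within 10 kb, and those of up to 3 genes per list. Regions were named after the gene whose end lay closest, up to 50 kb away, leaving out predicted genes. Single regions of 2 genes that these rules name are not reported here. Promoter measures leave out chromosome 18. An interferon regulatory factor motif was also searched in the promoters and is not reported here. The printed promoters, the Procr region and the single regions of the closing section were picked after their values were seen.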

Additional observations from a re-analysis of the deposited data

How the results depend on the processing

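The number of juvenile-only regions was 3713 and stayed between 3062 and 4184 with an overlap of 50% of the region, presence judged at the summit, peaks within 100 bp merged, no fetal or adult region within 500 bp, a −log10 p of at least 5, or the 5 HPC lists cut to 74297 regions. It was 77 in the upper 50% of the P14 list and 788 with presence in both P7 and P21. In the upper 50%, the shares in fetal, P14 and adult HSCs were 75.3%, 75.3% and 67.5%, in wild-type and knockout P7 HPCs 89.6% and 80.5%, and in wild-type and knockout P7 HSCs 50.6% and 45.5%, with 13.0% within 1 kb of a gene end, a median width of 524 bp and a median −log10 p of 66.8. With presence in both P7 and P21, these shares in the same order were 48.9%, 53.7%, 47.3%, 54.9%, 41.4%, 22.3% and 18.3%, the width 410 bp and the −log10 p 27.5. With HPC lists of equal length they were 56.7%, 58.8%, 51.8%, 57.7%, 46.5%, 26.9% and 22.5%, with 13.6% at gene ends, 431 bp and 31.6. An overlap of 50% gave 41.8% in adult HSCs, 404 bp and 22.6. With no fetal or adult region within 500 bp, 41.8% were in wild-type P7 HPCs, 15.2% in knockout P7 HSCs and 8.23% at gene ends. Within 5 kb of a gene end lay 27%. Lists cut to equal length outside the HPC lists of the first set, and a common −log10 p limit, were chosen after seeing the data. With the 7 other lists cut to 42459 regions, the first 6 shares were 4.74%, 14.0%, 4.15%, 13.1%, 12.8% and 13.8%; a −log10 p of at least 2 in every list moved none of the results by more than its interval. The cause of these shifts was not tested. No paired analysis was possible because each group has 1 pooled list and no column carries a replicate number, and for the same reason no library could be left out.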

Other observations

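Some juvenile-only regions that were weak in P14 HPCs overlapped very strong regions of other lists. A region at Tanc1, chr2:59612946-59613687, had a −log10 p of 10.5 in P14 HPCs and overlapped regions with 301 in P21 HPCs and 241, 313.5 and 640 in fetal, P14 and adult HSCs, while the second set had no call there. A region at Kmt5b, a histone methyltransferase gene, at chr19:3767269-3767999, had 9.0, 19.1 and 27.7 in P7, P14 and P21 HPCs. There P14 HSCs had 544, and wild-type P7 HPCs and HSCs 354 and 289, with no call in either knockout list. At Cln3, the lysosomal gene mutated in Batten disease, chr7:126585673-126585934 had 13.4 in P14 HPCs and 208 in wild-type P7 HPCs of the second set, and no call in the other 6 lists outside the rule. Each of these values is that of 1 pooled list.

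Chromosomes differed in the share of their P14 HPC regions that were juvenile-only. Chromosome 11 had the highest share, 5.62% (5.02% to 6.27%, 304 regions), followed by chromosome 15 with 5.03% and chromosome 2 with 4.70%, and chromosome 12 had the lowest, 3.41% (2.86% to 4.03%). The regions were spaced by a median of 105309 bp to the next one, and 335 (9.02%) lay within 10 kb of another.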
